A study of Mus musculus with 6 samples.

Results

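MHC class II high macrophages of mouse quadriceps muscle were chosen by transcript counts (UMIs, each standing for 1 captured mRNA molecule) among barcodes with at least 500 gene UMIs. A cell needed at least 2 UMIs of Tyrobp and Fcer1g, at least 3 of C1qa, C1qb, C1qc, Cd68 and Adgre1, and at most 4 of the scar-macrophage genes Spp1, Gpnmb and Mmp12. It also needed at least 5 UMIs of the class II genes H2-Aa, H2-Ab1 and H2-Eb1. The rule found 686 cells, of 1651 macrophages by its first conditions and 8258 cells in all. The 508 macrophages that met the other conditions with a class II sum under 5 are called class II low macrophages below. A further 457 macrophages exceeded the limit on scar-macrophage genes.

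Gene expression and surface proteins were read from the same cells of male wild-type C57BL/6 mice aged 2 to 3 months, at the day 7 time point. The groups were uninjured muscle, a 2 mm injury called subcritical and a 3 mm injury called critical. The sample labels name the critical one a volumetric muscle loss injury. Cells of 4 animals per group were tagged with hashtag antibodies, mixed, labelled with antibodies that carry DNA tags against surface proteins, and sequenced as 1 library. Group, pool, staining tube and library therefore cannot be told apart, and animals are numbered here by hashtag. Class II high macrophages numbered 18 in uninjured, 351 in subcritical and 317 in critical muscle, of which 15, 281 and 256 carried 1 hashtag. Their median depth was 4310, 1104 and 1379 UMIs. The injured animals had 33 to 105 of these cells each, with 44777 to 151582 UMIs in them. The uninjured library shared 16 barcodes with the subcritical and 10 with the critical one, which shared 16 between them, and 1, 1 and 4 of these involved a class II high macrophage.

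MHC class II molecules are heterodimers of an alpha and a beta chain that carry peptides from ingested protein to the cell surface, where helper T cells read them. H2-Aa and H2-Ab1 encode the chains of I-A, and H2-Eb1 encodes the beta chain of I-E. The invariant chain Cd74 guards the groove of new molecules, H2-DM loads the peptide, and the transactivator Ciita switches the set on together with RFX and NF-Y at the X and Y boxes of its promoters.

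Promoters of class II genes are shown for the boxes through which Ciita acts, in genes with high and with very low counts in these cells. Sequences are from RefSeq (GRCm38.p6), read 5′ to 3′ along the gene, and all lie upstream of the annotated start. Capitals mark matches to 2 patterns: AAC, any 2 bases and ATGATGC, which lies in the X box, and TGATTGG, the Y box. Both were searched on both strands in the 250 bases before each start, and the 2 patterns do not overlap in any sequence shown. The letters were chosen after these promoters had been looked at.
H2-Eb1 (chr17:34305756-34305820, plus strand): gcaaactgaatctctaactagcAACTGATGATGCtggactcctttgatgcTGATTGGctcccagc
H2-DMb1 (chr17:34153078-34153142, plus strand): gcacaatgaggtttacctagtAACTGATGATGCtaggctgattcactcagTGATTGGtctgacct
H2-DMb2 (chr17:34145107-34145171, plus strand): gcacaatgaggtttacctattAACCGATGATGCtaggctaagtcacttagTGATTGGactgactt
H2-Ob (chr17:34238796-34238860, plus strand): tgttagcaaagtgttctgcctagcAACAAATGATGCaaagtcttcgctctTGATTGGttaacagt
H2-Aa (chr17:34287859-34287923, minus strand): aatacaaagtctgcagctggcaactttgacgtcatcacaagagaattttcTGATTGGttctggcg

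The X pattern started 28 bases before the Y pattern in H2-Eb1, 29 in H2-DMb1 and H2-DMb2, and 26 in H2-Ob. Among 32851 promoter windows of the table, 0.0304% held the X pattern, 7.23% the Y pattern and 5 windows both. H2-Aa, H2-Eb2, H2-Oa and Rfx5 held the Y pattern alone, and H2-DMa, Ctss, Lgmn, Ifi30 and Rfxank held neither. Only exact matches were counted, so a promoter without a pattern may still hold a divergent X or Y box. The H2-Ab1, Cd74, Ciita and Rfxap promoters were not used here. Genes that held both patterns had very different counts. H2-Eb1 had 4179 and 4346 UMIs in subcritical and critical class II high macrophages, whereas H2-DMb2 had 2 and 10 and H2-Ob, a modulator of loading best known from B cells, had 2 and 5.

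The class II sum, which chose the cells, spread widely. Of the 1194 macrophages low in scar-macrophage genes, 306 had no class II UMI and 202 had 1 to 4. On the other side of the threshold 97 had 5 to 9, 246 had 10 to 29 and 343 had 30 or more, so most class II high macrophages lay well above it. Just outside, 26 cells stood at 4 UMIs, and just inside, 16 stood at 5. Their median depths were 768 and 1104 UMIs, their median Cd74 counts 6 and 8.5, and their mean I-A/I-E antibody counts 1.69 and 3.69 per cell. Farther out the order was not kept: cells at 3 UMIs had a median depth of 1259, and cells at 6 had 794, a median Cd74 count of 7 and a mean I-A/I-E count of 2.69, below those at 5. The median class II sum of the chosen cells was 121 UMIs in uninjured, 26 in subcritical and 32 in critical muscle. As a share of each cell's UMIs those medians were close, at 2.74%, 2.73% and 2.70%.

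**Figure D1:**
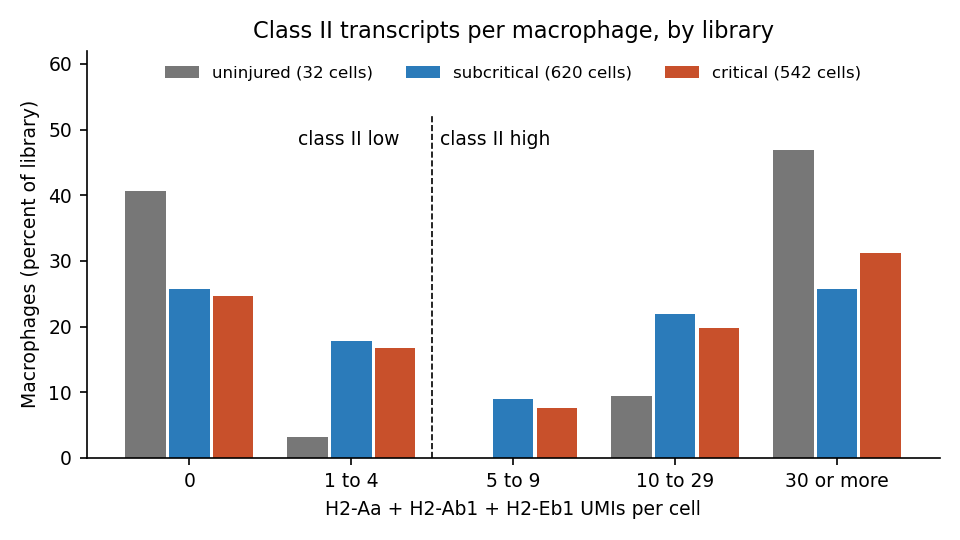
Percent of the macrophages low in scar-macrophage genes in each library (vertical axis), by the UMI sum of H2-Aa, H2-Ab1 and H2-Eb1 per cell (horizontal axis). Bars are the 3 libraries and the dashed line is the threshold of the rule. Both injured libraries filled every class, while 40.6% of the 32 uninjured cells stood at 0 and 46.9% at 30 or more.

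The markers that go with the label were present. H2-Aa, H2-Ab1 and H2-Eb1 were detected in 98.3%, 96.3% and 98.3% of subcritical class II high macrophages, and in 99.7%, 97.5% and 98.1% of critical ones. C1qb, a subunit of the first complement component, was detected in 97.7% and 95.9%. These genes are part of the rule, so the shares describe it. In endothelial cells of the same libraries, which should lack C1qb, 8.38% and 9.05% had a C1qb UMI at median depths of 1208 and 1376 UMIs.

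Markers of dendritic cells, which also present on class II, were few, and their summed level was above that of class II low macrophages. Their growth factor receptor Flt3 had 1 and 3 UMIs over all subcritical and critical class II high macrophages. Their transcription factor Zbtb46 had 1 and 0, the lectin Clec9a 1 and 1, and the migration receptor Ccr7 1 and 1. The lectin Cd209a had 17 and 33 UMIs, held by 5 and 6 cells. Over 18 dendritic cell markers the summed level was 298 and 356 counts per 1000000 UMIs (CPM), against 122 and 163 in class II low macrophages and 587 and 594 in endothelial cells. Of the 4 markers above 20 CPM, 3 were higher than in class II low macrophages on average over 7 animals. Naaa, a lysosomal amidase, was at 105 against 35.2 CPM and higher in 7 of 7, and the transcription factor Batf3 was at 72.4 against 34.7 and higher in 6. In uninjured muscle the list stood at 967 CPM and was found in 16 of 18 cells. By animal the sum ran from 219.5 to 558 CPM in subcritical and from 251 to 382 in critical muscle, and Xcr1 and Kit were at 0 in tagged cells.

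The B cell list of 10 genes stood at 244 and 205 CPM, with 7 genes at 0 in tagged cells, among them Cd79a and Ms4a1. The T and NK cell list of 12 genes stood at 11.4 and 21.5 CPM, with 11 genes at 0. Fibroblast transcripts were higher than these lists, at 3234 and 4384 CPM over 10 genes. By animal they ran from 536 to 5407 CPM in subcritical and from 567 to 6089.5 in critical muscle. Their part in the results below was not tested, except where a value without cells rich in stromal transcripts is given.

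The share of macrophages that were class II high differed between the injuries by less than the spread of the critical animals. In tagged cells of the 4 subcritical animals it was 37.4, 41.1, 41.2 and 42.9%, a mean of 40.6% ± 2.33 (SD, n = 4). In the 4 critical animals it was 52.4, 42.3, 47.9 and 32.0%, a mean of 43.6% ± 8.8. Critical values lay on both sides of the subcritical ones. The difference of 3.00 percentage points gave p = 0.486 in an exact two-sided permutation test (adjusted p = 0.971 over 2 share comparisons; the smallest p that 4 against 4 allows is 0.0286). Without critical animal 4 the difference was 6.89 points (exact permutation p = 0.114), and without critical animal 1 it was 0.0825 points (exact permutation p = 0.971).

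Of all tagged cells, class II high macrophages were 26.3% ± 2.75 in subcritical and 26.3% ± 5.37 in critical animals, with an exact permutation p = 1. A single hashtag was found on 36.35% of all subcritical and 32.27% of all critical cells. Of class II high macrophages, 80.06% and 80.76% carried one. Tagged cells were thus richer in class II high macrophages than all cells. Over whole libraries, untagged cells included, the share of macrophages that were class II high was 41.8% (95% Clopper-Pearson interval 38.5% to 45.3%) in subcritical muscle. In critical muscle it was 40.7% (37.2% to 44.2%). After thinning each cell to 1000 UMIs, which left out 284 and 165 smaller macrophages, the subcritical and critical shares were 39.7% (35.5% to 44.1%) and 41.6% (37.4% to 45.9%). In uninjured muscle 18 of 33 macrophages qualified, or 54.5% (36.4% to 71.9%). After the same thinning 7 of 17 did, or 41.2% (18.4% to 67.1%), close to the injured libraries. Before thinning the 18 cells were 0.82% of all uninjured cells, against 12.1% and 10.0% in the injured libraries. The intervals cover counting error only.

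Surface protein is a readout that the rule did not use. The I-A/I-E antibody, against class II protein, was higher on class II high than on class II low macrophages of the same animal. Whether it bound I-A, I-E or both here was not tested. The CD11c antibody, against an integrin chain of dendritic cells and many tissue macrophages, was also higher on class II high macrophages. The antibody against CD206, the mannose receptor of resident macrophages, was lower on class II high macrophages in 6 of 7 animals. It did not pass the test. Counts were compared within 7 animals with at least 20 cells of each kind, which left out critical animal 1 with its 13 class II low cells. Of 125 antibodies tested, 2 passed an adjusted p of 0.05, or 1.6%, both higher. The tags that were sequenced to read the 3 proteins are given to identify them, in capitals throughout.
I-A/I-E: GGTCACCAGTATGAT
CD11c: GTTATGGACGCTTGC
CD206: TCAACTCGGTGTTGC

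On class II high macrophages of the subcritical animals the I-A/I-E tag made up 356, 413, 323 and 384 of 10000 antibody counts, and on their class II low macrophages 93.2, 81.7, 54.3 and 86.4. In critical animals 2, 3 and 4 it made up 330.2, 361 and 477 against 74.3, 81.4 and 37.0. The ranges were far apart. The fitted difference was 2.39 ± 0.18 on the log2 scale (SE; edgeR quasi-likelihood test with the animal as block, adjusted p = 6.73e-06), higher in 7 of 7 animals.

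CD11c made up 34.6, 29.01, 36.4 and 25.7 of 10000 counts on the subcritical class II high macrophages and 18.6, 20, 21.1 and 21.2 on the class II low ones. The critical values were 31.6, 32.8 and 46.1 against 13.6, 10.2 and 12.3. Here too the ranges did not overlap, as was the case for 1.6% of the 125 antibodies. The log2 difference was 0.95 ± 0.20 (edgeR, adjusted p = 0.0421, higher in 7 of 7 animals). One direction in all animals was not limited to called antibodies. CD357 (log2 2.21 ± 0.58, edgeR adjusted p = 0.183), CD24 and CD90.1 were also higher in 7 of 7, and galectin-3 was lower in 7 of 7. The call was lost without subcritical animal 1, 2 or 3 or critical animal 2, 3 or 4 (edgeR adjusted p from 0.0786 to 0.133). It was also lost among cells of 1000 to 4000 UMIs (edgeR adjusted p = 0.241). On simulated antibody counts 10.5% of the calls of this fit were false. Transcripts of Itgax, which encodes CD11c, were few, with 21 UMIs in subcritical and 33 in critical class II high macrophages. They gave no single direction, at 57.0 CPM against 56.1 in class II low macrophages, higher in 3 animals and lower in 4.

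CD206 made up 279, 341, 259 and 269 of 10000 counts on the subcritical class II high macrophages and 619.6, 498, 412 and 354 on the class II low ones. In the critical animals it was 366, 299 and 388 against 534, 1179.8 and 384, and the highest of all values was that of critical animal 3. The log2 difference was −0.77 ± 0.20 (edgeR, adjusted p = 0.106). Without the animal as block it passed (adjusted p = 0.0356). Its transcript Mrc1 stood at 282 CPM against 723 and was lower in 7 of 7 animals.

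General macrophage proteins did not pass. F4/80 made up 48.1 of 10000 counts on class II high against 60 on class II low macrophages (log2 −0.33, edgeR adjusted p = 0.7502). The antibody receptor CD64 made up 308 against 299, the integrin CD11b 282 against 267, and the chemokine receptor CX3CR1 77.1 against 75.01. Costimulatory proteins, which a T cell needs beside the peptide, did not pass either: CD86 had 31.5 against 33.3, CD80 52.6 against 49.4 and CD40 83.7 against 83.2, with an edgeR adjusted p of 0.9901 each. The 3 isotype controls, which bind no mouse target, had means of 10.7 to 21.3 on class II high and 11.8 to 20.8 on class II low macrophages. The CD11c mean on class II low cells, 16.7, lay within that range.

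**Figure D2:**
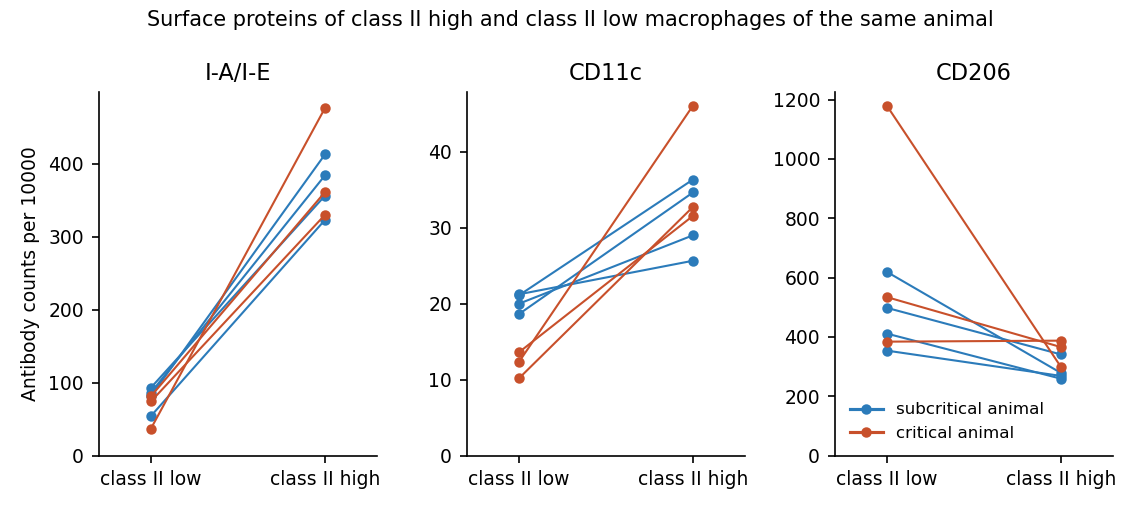
Counts of the I-A/I-E, CD11c and CD206 antibodies per 10000 antibody counts (vertical axes) on class II low and class II high macrophages; each line joins the values of 1 animal, 4 subcritical and 3 critical. I-A/I-E and CD11c were higher on class II high cells along every line, and CD206 was lower along 6 of 7.

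The median surface I-A/I-E went up with the class II transcript sum, given here as a description. That median over 8 animals was 53.0 of 10000 counts in macrophages with no class II UMI and 101 in those with 1 to 4. It was 208 at 5 to 14, 406 at 15 to 29, 487 at 30 to 59 and 521 at 60 or more. The lowest animal at 15 to 29 UMIs (268) was above the highest at 1 to 4 (149.9), whereas the class at 5 to 14 overlapped with both its neighbours and the top 3 classes overlapped with each other. Not every animal had a higher value at every step: for example, subcritical animal 4 had 149.9 at 1 to 4 and 146 at 5 to 14, and critical animal 1 had 64.8 at 0 and 33.9 at 1 to 4. An animal's value rests on as few as 5 cells.

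**Figure D3:**
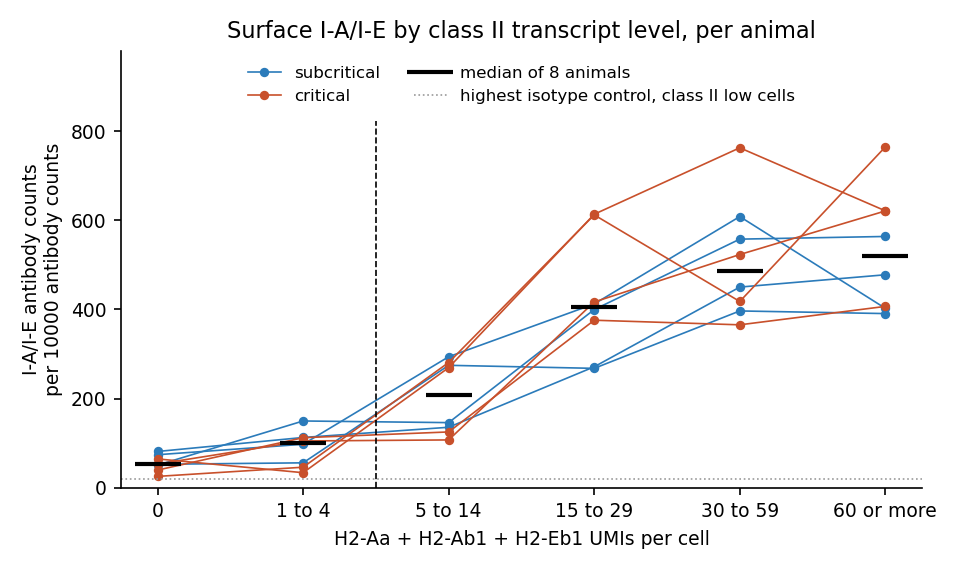
I-A/I-E antibody counts per 10000 antibody counts (vertical axis) by the class II UMI sum of the cells (horizontal axis) in 8 animals, with medians, the threshold of the rule and a dotted line at the highest of the 3 isotype controls on class II low macrophages. The medians climb from 53.0 to 521.

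What else class II high macrophages expressed, against class II low macrophages of the same animal, is a description, since the rule sorts on this contrast. Differences are of log2(CPM + 10), averaged over the 7 animals. Of 5859 genes with a mean of at least 20 CPM, 85 were higher in all 7 animals (1.45%) and 262 lower in all 7 (4.47%), and the median over all genes was −0.16.

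Other genes of class II presentation led the higher side. Cd74 stood between 24282 and 42678 CPM in the class II high macrophages of the 7 animals and between 715 and 1817 in the class II low ones, a log2 difference of 4.51 ± 0.52 (SD over 7 animals). The chains of the peptide loader differed likewise: H2-DMb1 was at 593 ± 84.3 against 51.8 ± 20.4 CPM and H2-DMa at 748 ± 97.7 against 116 ± 68.1. The transactivator Ciita was at 162 ± 41.5 against 19.6 ± 14.9 CPM, with no UMI in the class II low macrophages of 2 animals. Of 8 genes of this list above 20 CPM outside the rule, 4 were higher in all 7 animals and 7 on average, with a median of 1.61. The proteases of the pathway differed less: cathepsin S (Ctss) was at 4404 against 3238 CPM and higher in 6 animals, and legumain (Lgmn) at 1172 against 1446.

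Other genes on the higher side were the inflammatory cytokine Il1b (101 against 11.3 CPM, log2 2.46), the lectin Mgl2 (94.3 against 29.9, log2 1.57), the aspartic protease Napsa (log2 1.60) and the antibody receptor Fcgr4 (log2 1.52). Plbd1, Cytip, Ppfia4 and Olfm1 had log2 differences of 1.94, 1.88, 1.68 and 1.66. Il1b had no UMI in the class II low macrophages of 3 animals. Cytip, Ppfia4, Olfm1, Mgl2 and Fcgr4 likewise had none there in some animals, so these differences rest on few counts. Cytip was at 71.2 against 13.2 CPM, Ppfia4 at 81.6 against 22.8 and Olfm1 at 104 against 34.1. Class I genes, which present to cytotoxic T cells, stood close together: H2-D1 was at 3009 against 3134 CPM and H2-K1 at 1756 against 1712, and the median over 16 class I presentation genes was 0.11. Of these genes 12 were higher on average and 2 in all 7 animals: the nonclassical class I gene H2-T23, at 399.6 against 186 CPM, and the immunoproteasome subunit Psmb9, at 138 against 98.7.

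Genes of resident macrophages were on the lower side. Of 15 above 20 CPM, 10 were lower in all 7 animals and 0 higher in all 7, with a median of −1.33. F13a1, the A chain of coagulation factor XIII, was at 138 ± 98.9 against 499 ± 345 CPM (log2 −1.86). The carbonyl reductase Cbr2 was at 108 against 389 (log2 −1.73), the chemokine Pf4 at 713 against 2004 (log2 −1.42), and the folate receptor Folr2 at 164 against 475 (log2 −1.37). The hyaluronan receptor Lyve1 was at 0 in the class II high macrophages of all 7 animals and at 0 to 238 CPM in the class II low ones. Heme oxygenase Hmox1 was at 210 against 656 CPM (log2 −1.60).

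Replication histones were also on the lower side, with Hist1h2ae at 40.0 against 232 CPM (log2 −2.41) and Hist1h2ab at 9.45 against 99.7 (log2 −2.38). Hist1h1b (−1.78), Hist1h1e (−1.66) and the centromere chaperone Hjurp (−1.67) went with them. Of 16 proliferation genes above 20 CPM, 3 were lower in all 7 animals, among them Mki67 at 22.6 against 96.7 CPM and Stmn1 at 103 against 276, with a median of −0.62. Jdp2, Tns1, complement C4b and Gm37233 completed the lower side, at −2.26, −1.93, −1.67 and −1.61. Jdp2, C4b and Gm37233 had no UMI in the class II high macrophages of some animals, and Gm37233 was at 5.59 against 41.0 CPM. Monocyte genes gave no single direction: of 6 above 20 CPM none was higher or lower in all 7 animals, and the homing receptor Ccr2 was at 59.5 against 19.8 CPM and higher in 6.

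**Figure D4:**
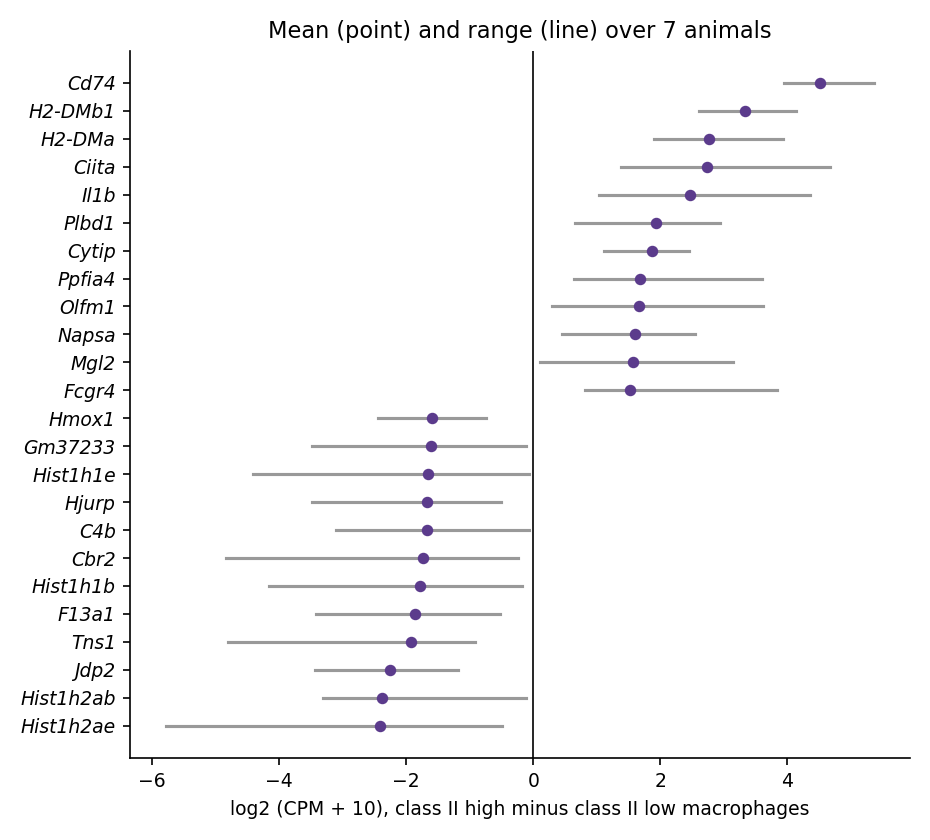
Differences of log2(CPM + 10) between class II high and class II low macrophages (horizontal axis) for the 12 highest and 12 lowest genes outside the rule with 1 direction in all 7 animals; points are means and lines the range over animals. Cd74 leads the higher side at 4.51, and Hist1h2ae the lower side at −2.41.

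Critical against subcritical muscle asks whether these cells differ between the larger and the smaller injury. No class II presentation gene outside the rule passed the test. In critical animals 6 ribosomal protein genes were lower and 1 higher, 5 genes of the mitochondrial genome were higher, S100a4, F13a1, Wfdc17 and Rbm3 were higher, and Tnfaip2, Fth1, Atp5k and Malat1 were lower. Of 1386 genes tested over 4 animals in each group (edgeR quasi-likelihood test on UMIs summed per animal, adjusted p under 0.05), 21 passed, or 1.52%, 10 higher (0.722%) and 11 lower (0.794%) in critical animals. One of the 11 was C1qc, a gene of the rule. DESeq2 called 16, 6 higher and 10 lower. Thinning each cell to 1000 UMIs left 7 calls among 645 genes and 7 animals.

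Of 7 class II presentation genes tested outside the rule 0 passed, and the median log2 difference was −0.20 beside 0.00 over all genes tested. Cd74 was at 42678, 32648, 28315 and 30246 CPM in subcritical animals and at 26968, 27602, 29986 and 24282 in critical ones. These overlapped, and the fitted difference was −0.36 ± 0.12 (SE, edgeR adjusted p = 0.162). Ctss had −0.38 ± 0.13 (edgeR adjusted p = 0.193), and passed without subcritical animal 4 (adjusted p = 0.0437) or without critical animal 2 (adjusted p = 0.0427). H2-DMa was at −0.12, H2-DMb1 at −0.23, Lgmn at −0.18, the thiol reductase Ifi30, which unfolds antigens, at −0.20, and Ciita at 0.02, and none of these passed. As a description, the rule genes H2-Aa, H2-Ab1 and H2-Eb1 had means of 12739, 7752 and 10119 CPM in subcritical and 11576, 6755 and 8737 CPM in critical animals.

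S100a4, a calcium-binding protein of motile monocytes and fibroblasts, was at 112, 41.8, 56.2 and 40.6 CPM in subcritical animals and at 160.3, 185, 169 and 344 in critical ones. The groups did not overlap, as was the case for 6.13% of all genes tested. It rose by a log2 difference of 1.91 ± 0.36 (edgeR, adjusted p = 0.00136), resting on 111 UMIs. It passed in all 13 alternatives that gave it a value, among them the fit without cells of 3 or more stromal UMIs (log2 from 1.62 to 2.15). Other cells of the same libraries had the same direction. Class II low macrophages gave 1.72 ± 0.48 (edgeR adjusted p = 0.170) and macrophages above the limit on scar-macrophage genes 0.93 ± 0.28 (edgeR adjusted p = 0.127). In endothelial cells S100a4 stood at 5.44 and 30.8 CPM, a difference of log2(CPM + 10) of 1.40 with no test. Library and injury cannot be told apart. Fibroblast transcripts in the class II high macrophages had a median log2 difference of 0.37 over 7 genes, none called, with the matrix protein Sparc at 1.399 ± 0.93 and the collagens Col1a1 at 0.14 ± 1.01 and Col3a1 at 0.37 ± 0.91.

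F13a1 was at 134, 62.7, 11.2 and 97.5 CPM in subcritical and at 160.3, 317, 195 and 149 in critical animals, with a narrow gap between the groups. It rose by 1.53 ± 0.40 on the log2 scale (edgeR, adjusted p = 0.0494). The call was lost without subcritical animal 2 or 3 or critical animal 2 or 3 (adjusted p from 0.121 to 0.238), with DESeq2 (adjusted p = 0.160) and when a hashtag was called by at least 5 counts and 70% of a cell's hashtag counts (adjusted p = 0.419). Wfdc17, a secreted protein of macrophages, rose from 94.7 ± 27.6 to 214 ± 54.5 CPM (log2 1.16 ± 0.31, edgeR adjusted p = 0.0463). That call was lost without subcritical animal 1, 2 or 4 or critical animal 2 or 3 (adjusted p from 0.0692 to 0.238), and in 5 other alternatives, among them DESeq2 (adjusted p = 0.265) and thinning (adjusted p = 0.402). Both genes are in the resident list, whose 12 tested genes held 2 higher calls, 0 lower ones and a median of 0.07, with the selenium carrier Selenop at −0.14. In class II low macrophages of 4 subcritical and 3 critical animals the fit gave −0.03 ± 0.77 for F13a1 and −0.12 ± 0.77 for Wfdc17. Neither was called, and these errors are too wide to tell no change from a rise as in class II high macrophages. Macrophages above the limit on scar-macrophage genes gave 0.73 ± 0.27 and 0.17 ± 0.31, neither called. The difference between class II high and class II low macrophages was tested and did not pass (1.36 for F13a1 and 1.28 for Wfdc17, edgeR adjusted p = 0.999 each).

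Of the monocyte list 3 genes were tested and S100a4 alone passed, with S100a6 at 0.66 ± 0.23 (edgeR adjusted p = 0.333) and the lysozyme Lyz1 at −1.07 ± 0.65 (adjusted p = 0.727). Interferon-gamma is the main inducer of Ciita. Of 6 genes of its pathway 0 passed, with the transcription factor Irf8 at −0.63 ± 0.27 (edgeR adjusted p = 0.380) and the receptor chains Ifngr1 and Ifngr2 at 0.05 and 0.12. Of 12 class I presentation genes 0 passed, with a median of −0.18 and H2-D1 at −0.37 ± 0.12 (edgeR adjusted p = 0.117), H2-K1 at −0.27 and B2m at −0.20. H2-D1 passed without subcritical animal 3 (adjusted p = 0.0429). A further 12 lists, from costimulation and lysosome to chemokines, proliferation and the stress genes that tissue dissociation induces, held 0 calls outside the rule, with medians from −0.24 (efferocytosis receptors) to 0.34 (alternatively activated genes).

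Tnfaip2, a gene induced by tumour necrosis factor, was at 201, 188, 169 and 122 CPM in subcritical animals and at 60.1, 39.6, 35.5 and 55.7 in critical ones, with a wide gap. It fell, with a log2 difference of −1.89 ± 0.35 (edgeR, adjusted p = 0.00136) on 76 UMIs, and all 12 alternatives with a value kept the call. Endothelial cells of the same libraries had −0.39 for it, as a difference of log2(CPM + 10) with no test. Ferritin heavy chain Fth1, which stores iron, fell from 13702 to 10160.2 CPM (log2 −0.49 ± 0.09, edgeR adjusted p = 0.00136). It was the 1 call among 7 iron and heme genes, whose median was −0.20, with the ferritin light chain Ftl1 at −0.18 and transferrin Trf at −0.09. Fth1 lost the call after thinning (adjusted p = 0.248), without cells rich in stromal transcripts (adjusted p = 0.116) and with hashtags called by share (adjusted p = 0.0884).

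Ribosomal protein genes moved unevenly. Of 79 tested, 6 fell and 1 rose, with a median of −0.04. Rps29 was at 3975, 4003, 3462 and 5352 CPM in subcritical and at 1523, 1603, 1891 and 1867 in critical animals, with a log2 difference of −1.35 ± 0.12 (edgeR, adjusted p = 7.22e-09). Rps28 was at −1.14, Rpl38 at −0.75, Rps21 at −0.73, Rpl37 at −0.70 and Rpl37a at −0.60, while Rps24 was at 0.77. Endothelial cells of the same libraries had −1.42 for Rps29, −1.10 for Rps28, −0.96 for Rpl38 and 0.78 for Rps24, on the same untested scale. These comparisons share their libraries, and library and injury cannot be told apart. Rps24 lost its call without subcritical animal 2 (adjusted p = 0.0706), whose value was the lowest of its group.

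Mitochondrially encoded genes, which make subunits of the respiratory chain and ATP synthase, were higher in critical animals: 5 of 9 passed, with a median of 0.89. mt-Atp8 was at 89.3, 62.7, 56.2 and 56.9 CPM in subcritical and at 180.3, 224, 213 and 195 in critical animals (log2 1.64 ± 0.31, edgeR adjusted p = 0.00136). The groups did not overlap. The median share of mitochondrial UMIs per class II high macrophage was 0.188% in the subcritical and 0.335% in the critical library. mt-Nd4l was at 1.50, mt-Cytb at 1.08, mt-Co3 at 0.89 and mt-Co1 at 0.61. Endothelial cells had 1.28 for mt-Atp8, 1.08 for mt-Nd4l, 0.80 for mt-Cytb, 0.75 for mt-Co3 and 0.92 for mt-Co1. The call of mt-Co1 was lost in 10 of 15 alternatives, among them without any 1 subcritical animal or critical animal 1, 2 or 4 (adjusted p from 0.0596 to 0.178). That of mt-Co3 was lost without subcritical animal 2 (adjusted p = 0.165) or 3 (adjusted p = 0.0792), with no filter on low counts (adjusted p = 0.0551) and after thinning (adjusted p = 0.0849).

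Of the remaining calls, the ATP synthase subunit Atp5k fell from 162 to 51.3 CPM (log2 −1.73 ± 0.37, edgeR adjusted p = 0.00701) on 82 UMIs, and was lost without subcritical animal 3 (adjusted p = 0.0850) and with DESeq2 (adjusted p = 0.0909). In endothelial cells Atp5k was at 221 and 91.2 CPM, and in macrophages rich in scar genes the fit gave −0.98 (edgeR adjusted p = 0.0264). The nuclear RNA Malat1 fell from 11126 to 8663 CPM (log2 −0.43, edgeR adjusted p = 0.00797) and was lost in 5 of 15 alternatives. These were the fits without subcritical animal 2 (adjusted p = 0.0529), with hashtags called by share (0.0568), with no filter (0.138), without cells rich in stromal transcripts (0.535) and after thinning (0.733, log2 −0.19). The cold-induced RNA-binding protein Rbm3 rose from 269.9 to 477 CPM (log2 0.76, edgeR adjusted p = 0.0463). It lost the call in 13 of 15 alternatives, among them without any 1 animal other than critical animal 2 (adjusted p from 0.0513 to 0.242), and stood at 0.07 after thinning.

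**Figure D5:**
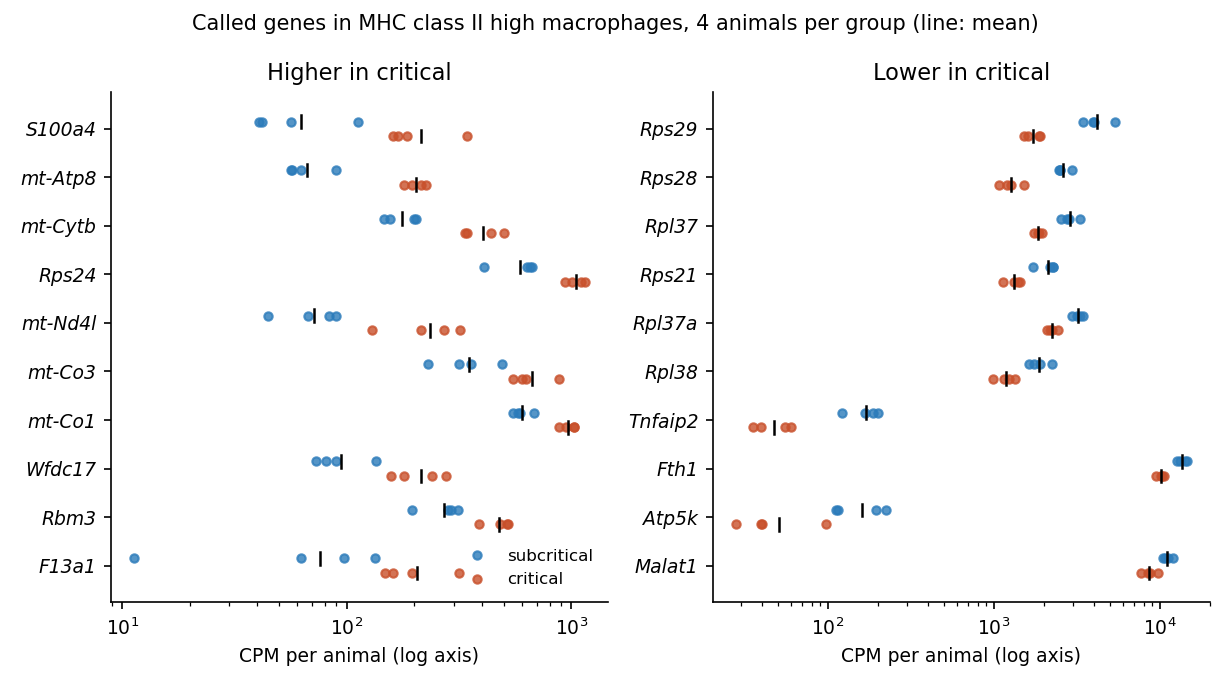
CPM in class II high macrophages (horizontal axes, log scale) of the 20 genes outside the rule that passed the test between critical and subcritical muscle; each point is 1 of 4 subcritical or 4 critical animals. The groups of no gene overlap; Tnfaip2 shows a wide gap and F13a1 a narrow one.

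No gene's response to injury size was shown to be particular to class II high macrophages. Of 1992 genes tested for a difference between the critical minus subcritical contrast in class II high and in class II low macrophages of 7 animals, 0 passed in edgeR and 0 in DESeq2 (0%), with 76 and 9 genes at an unadjusted p under 0.05. Without critical animal 4 the count was 1. On simulated counts this fit recovered 10.7% of genes changed by 1 on the log2 scale and 63.2% of those changed by 2. The critical against subcritical fit recovered 61.4% and 100%. A count of 0 therefore does not show that the 2 kinds respond alike. For S100a4 the difference between the kinds was 0.37 ± 0.53 and for Tnfaip2 −0.97 ± 0.60 (log2, edgeR adjusted p = 0.999 each).

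Surface proteins of class II high macrophages did not pass between the injuries either. Of 126 antibodies 0 passed (0%; edgeR, with 4 at an unadjusted p under 0.05; DESeq2 also 0, with 7). I-A/I-E made up 356, 413, 323 and 384 of 10000 counts in subcritical and 565, 330.2, 361 and 477 in critical animals (log2 0.27 ± 0.16, edgeR adjusted p = 0.752), with overlapping groups. CD206 made up 279, 341, 259 and 269 against 370.1, 366, 299 and 388 (log2 0.36 ± 0.12, edgeR adjusted p = 0.679). The groups did not overlap for 6.35% of the antibodies, among them the integrin CD103, at 49.5, 41.2, 45.2 and 49.5 against 20.6, 33.3, 33.8 and 27.0 (log2 −0.59 ± 0.19, edgeR adjusted p = 0.679). CD11c made up 31.4 ± 4.96 in subcritical and 35.3 ± 7.22 in critical animals.

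Uninjured muscle gave 18 class II high macrophages, too few for a test by animal, and its values are levels of 1 library with exact Poisson 95% intervals for counting error. Cd74 was at 34913 CPM (33627 to 36235), beside 31037 in the subcritical and 27559 in the critical library. The lipid carrier Apoe was at 4369 CPM (3922 to 4853) against 24925 and 21179.6. The membrane protein Ms4a7 was at 75.3 (27.6 to 164) against 1574 and 1302, and the fatty acid carrier Fabp5 at 37.7 (7.77 to 110.1) against 884 and 795. These genes were thus far lower in the uninjured cells, while Cd74 was close.

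On the higher side, the neutrophil alarmin S100a9 was at 2950.2 CPM (2585 to 3352) in uninjured class II high macrophages against 36.4 and 7.82. Neutrophil markers, S100a9 among them, summed to 3779 CPM there, against 198 and 45.0 CPM in the injured libraries. They were found in 6 of 18 uninjured cells, with a median of 0 UMIs and 3 or more UMIs in only 3 cells. The S100a9 level thus rests on few cells, which its interval does not cover. Lyz1 was at 2787 CPM (2432 to 3179) against 289 and 154, and S100a4 at 1431 (1180.5 to 1719) against 59.2 and 205. Plac8 was at 565 CPM against 25.1 and 39.1, and Mgl2 at 778 against 91.1 and 99.7. The monocyte list summed to 8436 CPM and was found in 17 of 18 cells, against 1601 and 2169 CPM in the injured libraries. In uninjured class II low macrophages it was at 9448 CPM. Whether all 18 cells are macrophages rather than monocytes or dendritic cells was not tested. The heat shock genes Hspa1a and Hspa1b, which stress and tissue dissociation induce, were at 2448 and 1067 CPM, against 319 and 223 in the subcritical and 434 and 209 in the critical library. Fibroblast transcripts were at 87.9 CPM in uninjured cells, and Col1a1 was at 0 (interval up to 46.3 CPM). The part of RNA from other cells or of handling in these values was not tested.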

How the data were processed

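The deposited files hold whole-number UMI counts of genes and antibodies per cell barcode, made by the authors with Cell Ranger (cellranger 6.0.2 per the file headers; GRCm39 per the submitters' processing notes). Total gene counts were 5681346, 4954129 and 7138662 in the uninjured, subcritical and critical libraries. The members and gene lists were chosen with earlier results of these data known. Hashtags were called with a mixture of 2 negative binomial components per hashtag on counts capped at the 99th percentile, a form settled after the hashtag counts were seen. Cells with several hashtags (25 subcritical and 17 critical members) were left out of values per animal, no doublet caller was run, and antibody aggregates (at least 1000 counts, over 50% from 1 antibody) were removed from antibody sums. The labels do not say which animal a hashtag is, and p-values measure the spread between hashtags.

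Counts were summed per animal, for animals with at least 20 cells, and tested over all features with edgeR 4.0.16 (TMM, quasi-likelihood, robust, Benjamini-Hochberg) in R 4.3.3, after tests on simulated data. DESeq2 1.42.0 was an alternative. Shares were compared with exact permutation tests. Endothelial cells had at least 3 UMIs of Pecam1, Cdh5 and Cldn5 and none of the myeloid genes or Ptprc. Genes named are those called, class II presentation genes, up to 3 genes of 6 further lists, and the 12 highest and 12 lowest with 1 direction in 7 animals; other genes were chosen after their values were seen.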

Additional observations from a re-analysis of the deposited data

Results flagged for a closer look

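Among 98 groups of 4 animals examined, 5 held 1 animal far from the other 3 by Dixon's 95% criterion, which chance does in about 1 group in 20. S100a4 stood at 344 CPM in critical animal 4, above the other critical animals. Rps24 stood at 408 CPM in subcritical animal 2, below the others. Rps28 stood at 2964 CPM in subcritical animal 4, above the others. Lgmn stood at 976 CPM in critical animal 3, below the others. Ifi30 stood at 1562 CPM in subcritical animal 3, above the others.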

How the results depend on the processing

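All 20 called genes outside the rule kept their sign in every alternative with a value. In each of these 7 kept the call (S100a4, mt-Atp8, mt-Nd4l, Rps29, Rps28, Rpl38 and Tnfaip2), and 13 lost it in at least 1. Of the 7, S100a4 and mt-Nd4l had a value in 13 of 15 alternatives, mt-Atp8 in 14 and Tnfaip2 in 12. The 21 calls between injuries became 7 after thinning, where 645 genes were tested, and 14 to 26 when 1 animal was left out. The count of genes whose injury contrast differed between class II high and low macrophages was 1 with no filter on low counts and 0 to 1 without 1 animal. The 2 antibody calls between them became 1 among cells of 1000 to 4000 UMIs and 1 to 2 without 1 animal. Without the replicate block 3 antibodies passed, CD206 among them. No paired analysis was possible between the injuries because hashtags 1 to 4 mark different animals in each group. The difference in the share of tagged cells changed sign with hashtags called by share (−1.02 points) and after thinning (−1.24), and ran from −2.11 to 1.99 without 1 animal.

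Uncalled genes near 0 changed sign, and the cause was not tested. After thinning H2-DMa was at 0.12, Selenop at 0.12, Trf at 0.10, Col1a1 at −1.48 and Col3a1 at −0.72. Ciita was at −0.00220 with DESeq2 and −0.00950 with no filter, and Ifngr1 at −0.0562 in cells of at least 10 class II UMIs. Without 1 animal Ciita ran from −0.11 to 0.18, Ifngr1 from −0.0603 to 0.12, Ifngr2 from −0.12 to 0.27, Trf from −0.22 to 0.0837, Col1a1 from −0.25 to 0.70 and Col3a1 from −0.0859 to 0.78. Only 76 to 128 UMIs over the 8 animals stand behind Tnfaip2, Atp5k, S100a4, F13a1 and Wfdc17, and 1 library per group limits every comparison between injuries.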
